A study of Mus musculus with 40 samples.

Results

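The collagen genes of brown adipose tissue (BAT) were taken as every gene of the count table whose symbol reads Col, a number, a and a second number, such as Col1a1. The rule gave 44 collagen genes among the 20295 genes listed, and 30 of them passed the filter on low counts that left 13277 genes for testing. RNA of BAT was sequenced from 40 male mice kept at thermoneutrality (29 °C), in 8 groups of 5. In the first cohort, C-3BO mice carried a Cre-dependent Gpr3 transgene (Gpr3 TTG) at Rosa26 together with Ucp1-Cre, which is used to drive recombination in brown and beige adipocytes. Their control littermates had either the transgene without Cre or Cre without the transgene, and the mice were 13 to 19 weeks old. Mice of each genotype were kept on chow or were given a high-fat diet (HFD, 60 kcal% fat) for 7 days. In the second cohort, control littermates from the I-3BO line, 15 weeks old and labelled wildtype, received the β3-adrenergic agonist CL-316,243 (CL, 1 mg/kg) or saline by daily injection for 9 days, on chow or with HFD for 7 of these days.

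Collagens are triple-helical proteins of the extracellular matrix, and most are secreted while a transmembrane class sits at cell surfaces. The fibrillar collagens such as types I and III form tensile fibres, the fibril-associated collagens decorate them, collagen IV is the network of basement membranes around vessels and adipocytes, and collagen VI forms beaded microfibrils that are abundant in fat. Fibroblasts, preadipocytes, endothelial cells and mural cells are known sources of collagen in adipose tissue, and a matrix that is remodelled has to be built, trimmed and broken down as the tissue grows or regresses.

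The libraries held between 849126 and 15260516 counts, and the limit that a count of 0 allows, 3 counts, equalled 0.206 to 3.01 CPM, the unit of counts scaled to library size. This limit covers counting error only. Ucp1, the uncoupling protein that defines brown fat, stood between 1116 and 15797 CPM in every library, and the 8 brown adipocyte markers summed to 11556 to 32576 CPM. Gpr3 lay between 266 and 463 CPM in chow C-3BO libraries and between 688 and 918 CPM in HFD C-3BO libraries, without overlap. In the other 30 libraries it lay at most at 9.15 CPM. The 9.15 CPM came from chow CL replicate 3, in a group with a median of 0.295 CPM. The 12 shallowest libraries were all HFD saline, all HFD CL and replicates 4 and 5 of HFD C-3BO, and these 12 held Alb at 62.1 CPM or more and Lcn8 at 6.01 CPM or more, transcripts of liver and epididymis, against at most 1.62 CPM of Alb and no count of Lcn8 in the other 28. For saline and CL mice, diet and this set of libraries cannot be told apart. The skeletal muscle markers summed to 621 to 7892 CPM in chow control mice and 4.46 to 179.5 CPM in HFD control mice. In bulk tissue, fewer cells of a type and less RNA per cell cannot be told apart.

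Per kilobase of exon, the collagen pool of BAT was led by a few chains. Col3a1 and Col4a1 both averaged near the top with 143 and 142 RPKM, CPM per kilobase of exon, over 40 mice, followed by Col4a2 at 109, Col1a2 at 59.6, Col1a1 at 55.3, Col6a2 at 47.2, Col6a1 at 45.6 and Col6a3 at 23.4 RPKM. These 8 genes held 84.5 ± 2.58% (SD, n = 40) of the summed per-length collagen level, and Col4a1 and Col4a2 alone held between 20.7% and 55.5% of it. Some chains that assemble together were found at similar per-length levels. The ratio of Col1a1 to Col1a2 averaged 0.923 (0.725 to 1.17 over 40 mice), that of Col4a1 to Col4a2 1.30 (1.01 to 1.67), and that of Col6a1 to Col6a2 0.963 (0.818 to 1.1). Col6a3 lay lower than its partner chain, with a ratio to Col6a2 of 0.467 (0.348 to 0.649). The lowest of the 30 tested members was Col6a4 at 0.0492 RPKM. The 14 members that were not tested had between 3 and 254 counts in all 40 libraries together. They were the cartilage collagens Col2a1, Col9a1, Col9a2, Col9a3 and Col11a1, the basement membrane chain Col4a6, the anchoring collagen Col17a1 of epithelia, and Col6a5, Col8a2, Col19a1, Col22a1, Col24a1, Col25a1 and Col26a1.

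The effects of C-3BO, CL and HFD on the family were tested by edgeR's quasi-likelihood test with Benjamini-Hochberg adjustment over the 13277 genes, and a gene was called at an adjusted p-value under 0.05. In C-3BO mice on chow 1 of 30 collagens was higher and 10 were lower than in control mice, where 15.8% of all tested genes were higher and 15.9% lower. On HFD, 3 were higher and 11 lower in C-3BO mice, against 19.3% and 15.5% of all genes. Col6a4, 1 of these 3, passed the filter on low counts only through the shallow libraries, where it was highest. Col10a1, called higher on both diets, passed it only through C-3BO and CL libraries, where it was high. CL on chow raised 1 and lowered 4, beside 9.16% and 6.13% of all genes. CL on HFD raised 2 and lowered 10, beside 12.7% and 10.8%. The median log2 fold change of the 30 collagens was -0.50 and -0.44 for C-3BO on chow and HFD and -0.24 and -0.33 for CL, where the medians of all genes were -0.03, -0.02, -0.01 and -0.01.

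The calls for HFD against chow are given for each group of mice. In control mice 5 collagens were higher and 3 lower on HFD (15.4% and 17.5% of all genes), and in C-3BO mice 6 were higher and 2 lower (13.5% and 12.2%). Saline mice had 14 higher and none lower (7.45% and 8.04%), and CL mice had 10 higher and 4 lower (10.9% and 12.7%). The collagens higher on HFD in C-3BO, saline and CL mice each include Col6a4, whose calls rest on the shallow libraries. At an unadjusted p under 0.05 the same edgeR test gave 16 collagens in saline mice in all, and DESeq2 called 14, all higher. The median log2 fold changes were -0.11, -0.09, 0.56 and 0.29 in control, C-3BO, saline and CL mice, where those of all genes were 0.00, 0.03, -0.01 and -0.01. With library totals alone in place of normalization factors, the median of all genes moved to 0.15 in control mice and 0.21 in C-3BO mice, that of the collagens to 0.06 and 0.09, and the split of collagens higher and lower on HFD became 5 and 0 in control and 7 and 0 in C-3BO mice. Of the 30 collagens, 25 were called in at least 1 of the 8 comparisons and 5 in none, which were Col4a3, Col4a5, Col6a6, Col14a1 and Col16a1. Their log2 fold changes in these comparisons lay between -0.74 and 0.55. The counts of calls in some of these comparisons rested on single libraries: CL on chow gave 3 calls without chow saline replicate 2 or 3 or chow CL replicate 2 and 8 without chow saline replicate 4 or chow CL replicate 3, HFD in control mice gave 5 without chow control replicate 4, HFD in C-3BO mice gave 5 without HFD C-3BO replicate 4, and HFD in saline mice gave 9 without chow saline replicate 1 or 5, 8 without chow saline replicate 4 and 9 without HFD saline replicate 4.

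**Figure D1:**
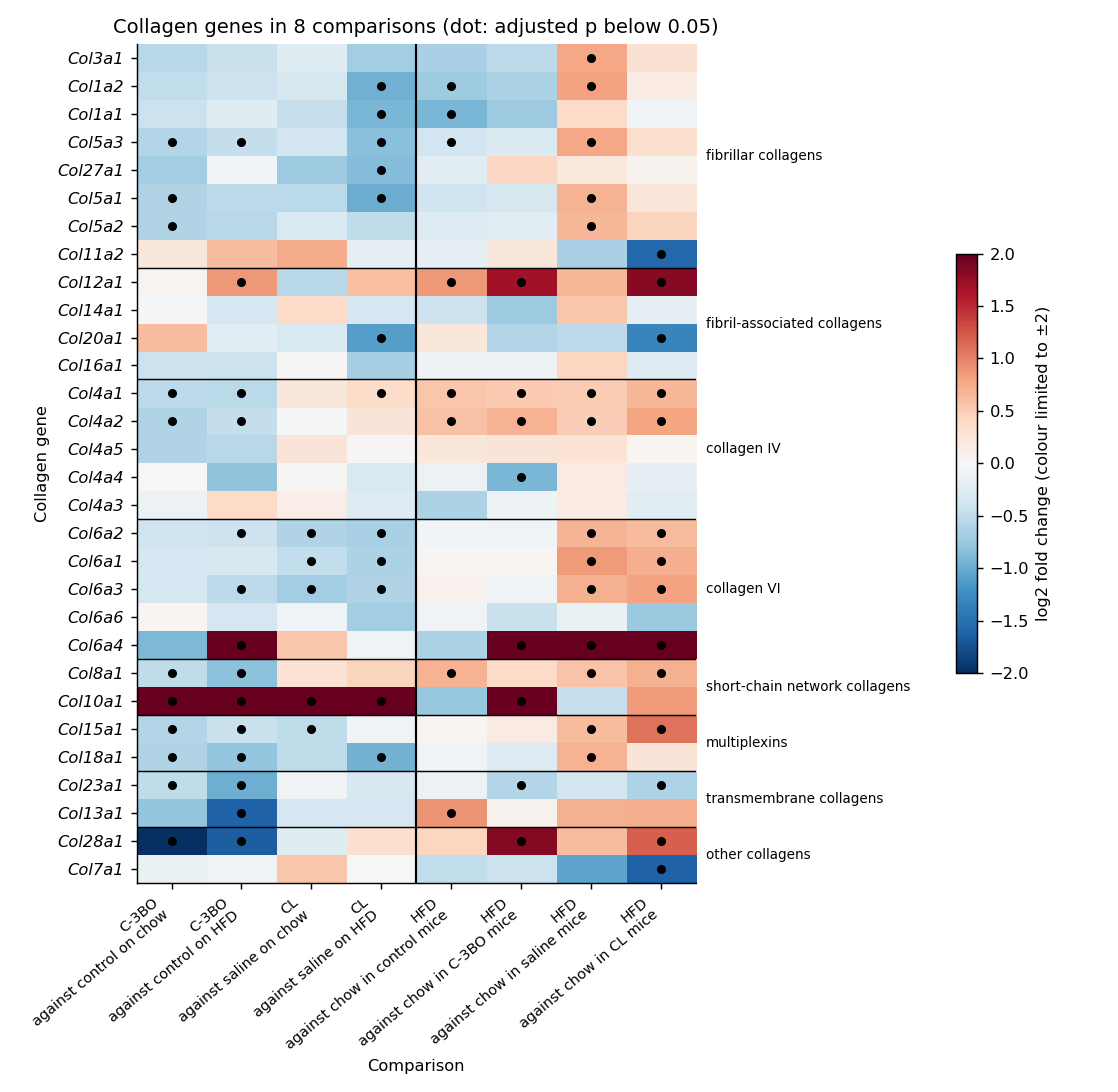
Fold changes of the 30 tested collagen genes (rows, grouped by class) in 8 comparisons (columns): colour is the log2 fold change from blue (lower) to red (higher), limited to 2 in each direction, and a dot marks an adjusted p below 0.05. Col10a1 is red with a dot in all 4 treatment columns, and Col4a1 and Col4a2 are blue for C-3BO and red for HFD.

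Col10a1, which encodes type X collagen, a short-chain collagen best known from hypertrophic cartilage, was the collagen with the largest fold change and was raised in all 4 treatment comparisons. Chow control mice held 0.33, 0.405, 0.224, 0.347 and 0 CPM, and chow C-3BO mice 4.82, 7.29, 4.3, 4.65 and 2.43 CPM. HFD control mice held 0.072, 0, 0.206, 0.444 and 0 CPM, against 8.84, 11.7, 27.4, 28.5 and 16.8 CPM in HFD C-3BO mice. The C-3BO mice did not overlap with the control mice on either diet. Chow saline mice held 0.108, 0, 0.0894, 0.304 and 0.425 CPM, and chow CL mice 1.47, 1.3, 1.85, 1.73 and 0.518 CPM. HFD saline mice held 0, 0.315, 0.121, 0 and 0.159 CPM, against 1.35, 2.88, 3.49, 3.14 and 1.82 CPM in HFD CL mice. The CL and saline mice did not overlap on either diet, and the CL mice stayed below the C-3BO mice of the same diet. No untreated library held more than 6 counts of Col10a1, so the folds rest on few counts. The gene passed the filter on low counts only through C-3BO and CL libraries, where it was high. Its calls in the 4 treatment comparisons therefore cannot stand as independent support for a rise.

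The log2 fold changes of Col10a1 were 4.01 ± 0.50, adjusted p = 1.20e-07 for C-3BO on chow, 6.74 ± 0.51, adjusted p = 8.56e-13 for C-3BO on HFD, 2.74 ± 0.57, adjusted p = 8.76e-04 for CL on chow and 4.05 ± 0.70, adjusted p = 4.17e-05 for CL on HFD (edgeR). As a ratio of summed counts, corrected for library size, C-3BO against control was 16.9 (95% interval 9.97 to 30.7) on chow, from 190 and 15 counts, and 111 (95% interval 59.9 to 232) on HFD, from 615 and 10 counts. For CL the ratio was 7.07 (95% interval 3.64 to 15.3) on chow and 17.9 (95% interval 6.68 to 67.7) on HFD. These intervals cover counting error only. In C-3BO mice Col10a1 was also higher on HFD than on chow (1.98 ± 0.36, adjusted p = 1.16e-04), while CL mice gave 0.85 ± 0.43, adjusted p = 0.157. The difference of the C-3BO effect between HFD and chow was 2.73 ± 0.83 with an adjusted p of 0.0712 in edgeR, while DESeq2 gave 2.80 with an adjusted p of 0.0195. Gpr3 itself was higher in HFD than in chow C-3BO mice, and its part in the diet effect on Col10a1 was not tested. The difference between the C-3BO and the CL effect was not called on chow (1.27 ± 0.89, adjusted p = 0.447) or on HFD (2.69 ± 1.27, adjusted p = 0.333). Without the shallow HFD C-3BO replicates 4 and 5 the fold change for C-3BO on HFD was 6.53, adjusted p = 2.90e-11.

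**Figure D2:**
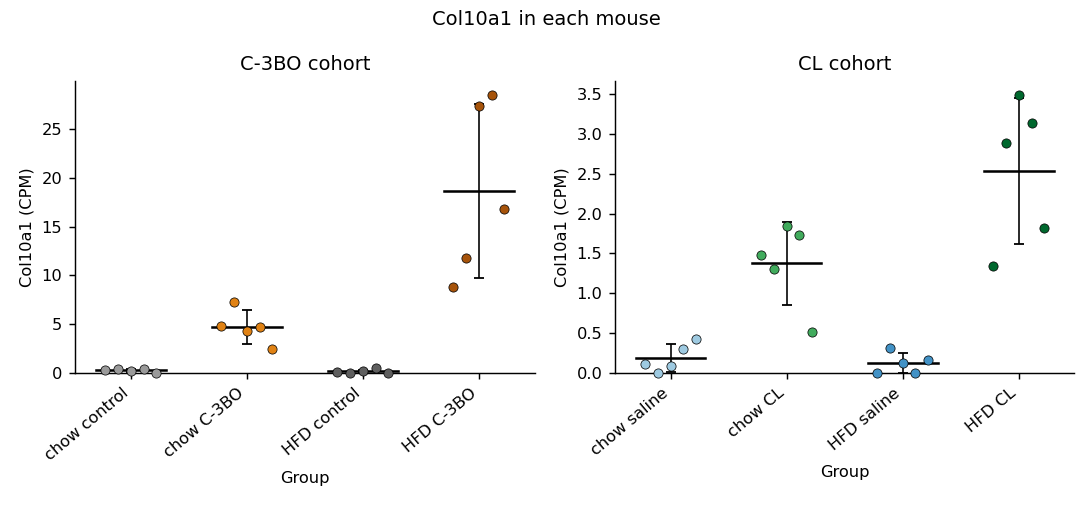
Col10a1 in CPM for each mouse (points) by group, with the mean (line) and SD (bar, stopped at 0); the left panel is the C-3BO cohort and the right panel the CL cohort, with separate axes that start at 0. C-3BO mice reach 28.5 CPM on HFD and CL mice 3.49 CPM, while control and saline mice stay at or below 0.444 CPM.

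Col10a1 (NM_009925) lies at chr10:34109787-34116891 on the plus strand of mm9, inside the span of Nt5dc1 on the minus strand (chr10:34023418-34138334), and 18 exon bases of the pair overlap in the GENCODE annotation of that build. The strand setting of the counting is not stated, so reads on these 18 bases cannot be assigned to 1 gene. Nt5dc1 was higher in the same 4 comparisons, by 0.73 ± 0.16, 1.05 ± 0.16, 0.61 ± 0.16 and 0.97 ± 0.17 on the log2 scale (adjusted p from 3.82e-06 to 0.00796), fold changes smaller than those of Col10a1. Its part in the Col10a1 counts was not tested. Cartilage and bone markers were counted beside Col10a1, and their part in its result was not tested. They summed to 2.73 to 7.09 CPM in chow control, 0.775 to 2.26 in chow C-3BO, 4.12 to 12.8 in HFD control and 0.677 to 2.66 CPM in HFD C-3BO mice, and to 3.25 to 6.68, 1.73 to 3.24, 5.35 to 8.85 and 1.36 to 4.46 CPM in chow saline, chow CL, HFD saline and HFD CL mice. Of the 6 markers, only Sox9 had enough counts to be tested and it was lower in C-3BO mice (-1.94 ± 0.41, adjusted p = 3.82e-04 on chow and -2.67 ± 0.42, adjusted p = 4.83e-06 on HFD), while Acan, Comp, Matn3, Sp7 and Bglap stayed at or below 0.904 CPM in every mouse.

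The 250 bases upstream of the Col10a1 and Col28a1 starts are shown because these genes had the largest rise and the largest fall with C-3BO. They were read from the mm9 genome, 5′ to 3′ on the strand of the gene, at chr10:34109537-34109786 (plus strand) and chr6:8142618-8142867 (minus strand), and capitals mark a TATA box.
Col10a1: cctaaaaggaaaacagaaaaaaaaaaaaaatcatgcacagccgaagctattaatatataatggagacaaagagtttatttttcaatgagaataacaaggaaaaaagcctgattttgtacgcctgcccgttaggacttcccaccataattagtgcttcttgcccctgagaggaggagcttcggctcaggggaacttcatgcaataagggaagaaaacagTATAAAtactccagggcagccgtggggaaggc
Col28a1: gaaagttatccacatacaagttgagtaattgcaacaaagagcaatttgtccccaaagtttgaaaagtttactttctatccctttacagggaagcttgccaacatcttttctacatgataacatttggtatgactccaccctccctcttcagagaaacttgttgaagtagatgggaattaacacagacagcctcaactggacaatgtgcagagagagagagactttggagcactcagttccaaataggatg
The TATA box (TATAAA, searched on both strands) of Col10a1 lay from position -32 to -27 before the start. It was found in 7 of the 44 collagen windows (15.9%, Col1a1, Col1a2, Col3a1, Col10a1, Col13a1, Col14a1 and Col17a1) and in 11.8% of the 20292 windows of the same length of all listed genes. The CCAAT box (CCAAT) was found in 31.8% of collagen windows and 35.5% of all, and the GC box (GGGCGG) in 59.1% and 45.5%. The cAMP response element in its full form (TGACGTCA) was in none of the collagen windows and in 2.14% of all, and its half-site (TGACG, which the full form contains) was in 9.09% and 21.2%. Neither of the windows shown held any of these other letters.

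Col4a1 and Col4a2, the main chains of basement membrane collagen, were lower in C-3BO mice on both diets, whereas Col4a1 was higher in CL mice on HFD. In mm9 the genes lie head to head, Col4a1 at chr8:11198423-11312826 on the minus strand and Col4a2 at chr8:11312829-11449287 on the plus strand, with 2 bases between their starts. For Col4a1, chow control mice held 700.1, 863, 655, 792 and 720.4 CPM and chow C-3BO mice 509.5, 564, 428, 613 and 495 CPM. On HFD, control mice held 1278, 1288, 944, 1010.2 and 963 CPM and C-3BO mice 768, 852, 729, 738 and 672 CPM. The C-3BO mice lay below all control mice of their diet. CL on HFD went with higher levels, from 1137, 1224, 969, 1357 and 1098 CPM in saline mice to 1362, 1437, 1562, 1569 and 1559 CPM in CL mice, groups that did not overlap. On chow, saline mice held 629 to 976 CPM and CL mice 886 to 1071 CPM, and these ranges overlapped.

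The log2 fold change of Col4a1 was -0.52 ± 0.11, adjusted p = 5.10e-04 for C-3BO on chow and -0.54 ± 0.11, adjusted p = 2.17e-04 on HFD, and 0.23 ± 0.11, adjusted p = 0.171 for CL on chow and 0.37 ± 0.11, adjusted p = 0.0131 on HFD. The call for CL on HFD was lost without HFD saline replicate 3 (0.32, adjusted p = 0.0548) and with library totals alone as the scaling (0.22, adjusted p = 0.203). Col4a2 moved with it: C-3BO lowered it from 602 ± 58.1 CPM to 396 ± 63.5 CPM on chow (SD, n = 5; -0.60 ± 0.10, adjusted p = 1.91e-05) and from 901 ± 92.3 CPM to 645 ± 18 CPM on HFD (-0.48 ± 0.10, adjusted p = 2.73e-04). Without HFD C-3BO replicates 4 and 5 the C-3BO fold changes on HFD were -0.49, adjusted p = 0.00598 for Col4a1 and -0.49, adjusted p = 0.00267 for Col4a2. CL gave -0.03 ± 0.10, adjusted p = 0.903 on chow and 0.26 ± 0.10, adjusted p = 0.053 on HFD for Col4a2.

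Col8a1, a short-chain network collagen of vessel walls, was lower in C-3BO mice on both diets as well. It was found at 13.8 to 20.7 CPM in chow control and 6.33 to 15.2 CPM in chow C-3BO mice, which overlapped, and at 19.7 to 34.9 CPM in HFD control and 13.2 to 17.1 CPM in HFD C-3BO mice, which did not. The log2 fold change for C-3BO was -0.51 ± 0.18, adjusted p = 0.0285 on chow and -0.82 ± 0.18, adjusted p = 4.40e-04 on HFD, and for CL 0.29 ± 0.18, adjusted p = 0.281 on chow and 0.44 ± 0.18, adjusted p = 0.0743 on HFD. The C-3BO call on chow was lost without chow control replicate 1, 2 or 4 or chow C-3BO replicate 3 (adjusted p from 0.0594 to 0.153) and with the libraries of the comparison alone (adjusted p = 0.0794).

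The difference between the C-3BO effect and the CL effect was then tested directly. On chow it passed for 4 collagens, all with the lower value in C-3BO mice and none higher (3.4% and 2.83% of all genes), and on HFD for 3 lower and none higher (1.05% and 0.753%). At an unadjusted p under 0.05 edgeR gave 6 collagens on chow and 9 on HFD in all, and DESeq2 called 4 on each diet. On chow the difference was -0.74 ± 0.16, adjusted p = 0.00321 for Col4a1, -0.58 ± 0.14, adjusted p = 0.0111 for Col4a2, -0.81 ± 0.25, adjusted p = 0.0486 for Col8a1 and -2.81 ± 0.62, adjusted p = 0.00426 for Col28a1. On HFD it was -0.92 ± 0.16, adjusted p = 0.00114 for Col4a1, -0.75 ± 0.14, adjusted p = 0.00339 for Col4a2 and -1.26 ± 0.26, adjusted p = 0.0048 for Col8a1, while Col28a1 gave -1.96 ± 0.56, adjusted p = 0.0599. The Col8a1 call on chow was weak: it was lost without any 1 of 13 of the 20 libraries (chow control 1, 2 and 4, chow C-3BO 2, 3 and 5, chow saline 1, 4 and 5, and chow CL 1, 2, 4 and 5), with adjusted p-values from 0.0641 to 0.108. It was also lost with library totals alone (adjusted p = 0.0697), with no filter on low counts (0.0685) and with the libraries of the comparison alone (0.133), and the last of these also ended the Col4a2 call on chow (adjusted p = 0.0585). The cohorts differed in age, littermates and handling, which cannot be told apart from C-3BO against CL in these differences, although each effect was measured against its own controls.

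**Figure D3:**
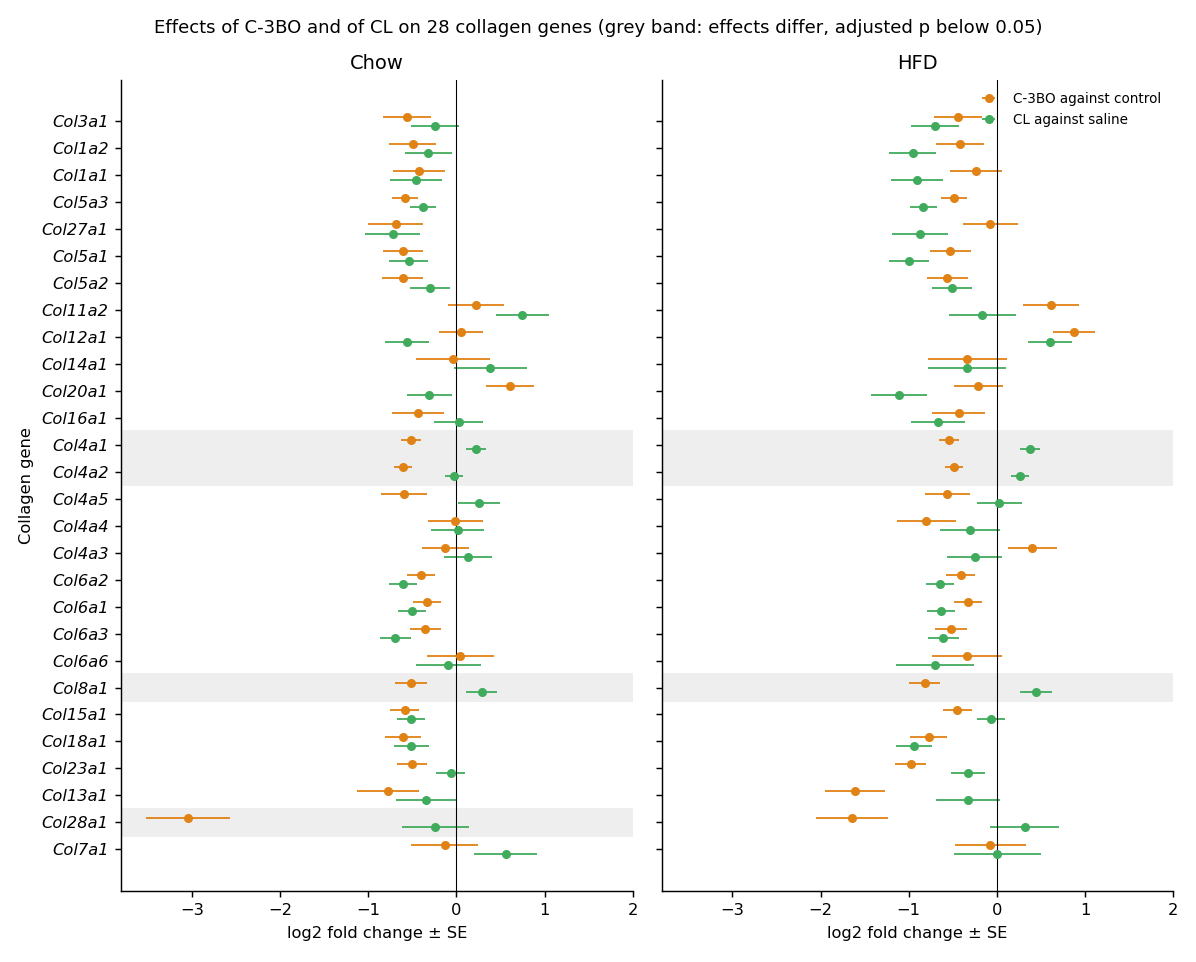
Log2 fold change ± approximate SE (derived from the test's F) of 28 collagen genes for C-3BO against control (orange) and CL against saline (green) on chow (left) and HFD (right). Col10a1 and Col6a4 are left out for scale. Grey bands mark the genes whose effects differed at an adjusted p below 0.05, which are Col4a1, Col4a2 and Col8a1 on both diets and Col28a1 on chow.

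Endothelial markers were counted beside these basement membrane genes. Of 7 endothelial markers (Pecam1, Cdh5, Kdr, Tek, Tie1, Emcn and Esam), 3 were lower in C-3BO mice on chow and 5 on HFD and none higher, while CL raised 2 on HFD. Of all tested genes 15.9% and 15.5% were lower with C-3BO on chow and HFD and 12.7% were higher with CL on HFD. CL on chow called none in edgeR's quasi-likelihood test, with 0 at an unadjusted p under 0.05 and 0 in DESeq2. The sum of the 7 was 866 to 1265 CPM in chow control, 538 to 1091 in chow C-3BO, 1714 to 2217 in HFD control and 1422 to 1569.7 in HFD C-3BO mice. In the second cohort it was 968 to 1222 in chow saline, 945 to 1218 in chow CL, 1356 to 1489 in HFD saline and 1535 to 2082 CPM in HFD CL mice. On HFD the difference between the C-3BO and CL effects passed for Esam (-0.81 ± 0.17, adjusted p = 0.00633), Cdh5 (-0.89 ± 0.20, adjusted p = 0.0112) and Pecam1 (-0.79 ± 0.19, adjusted p = 0.0235). Mural cell markers (Rgs5, Cspg4, Myh11, Acta2, Tagln and Notch3), 6 in all, had 1 higher with C-3BO on chow (Cspg4), 4 lower with C-3BO on HFD, and 1 lower with CL on HFD (Notch3), beside 15.8% higher, 15.5% lower and 10.8% lower of all genes. Their sum was 424 to 555, 423 to 671, 801 to 1008 and 701 to 800.2 CPM in chow control, chow C-3BO, HFD control and HFD C-3BO mice. The part of these markers in the Col4a1, Col4a2 and Col8a1 results was not tested.

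The other collagen IV chains were low and were mostly not called. Col4a5 averaged 1.43, Col4a4 0.35 and Col4a3 0.307 RPKM, and Col4a6 was not tested, with 120 counts in all 40 libraries. Their log2 fold changes with C-3BO were -0.59 ± 0.26, adjusted p = 0.0746 on chow and -0.56 ± 0.25, adjusted p = 0.0826 on HFD for Col4a5, -0.80 ± 0.34, adjusted p = 0.0614 on HFD for Col4a4 and 0.40 ± 0.28, adjusted p = 0.266 on HFD for Col4a3. Col4a4, a chain of the kidney glomerular basement membrane, was lower on HFD than on chow in C-3BO mice (-0.91 ± 0.34, adjusted p = 0.0468), a call that was lost without any 1 of chow C-3BO replicates 1, 3 and 5 and HFD C-3BO replicates 2, 3 and 4 (adjusted p from 0.0802 to 0.112), without HFD C-3BO replicates 4 and 5 (0.0988), with library totals alone (0.109) and with no filter on low counts (0.0551).

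Col4a1 and Col4a2 were the only collagens higher on HFD in all 4 groups of mice. The log2 fold change of Col4a1 was 0.56 ± 0.11, adjusted p = 1.76e-04 in control, 0.53 ± 0.11, adjusted p = 5.85e-04 in C-3BO, 0.52 ± 0.11, adjusted p = 0.00162 in saline and 0.66 ± 0.11, adjusted p = 4.68e-05 in CL mice. For Col4a2 it was 0.58 ± 0.10, adjusted p = 2.33e-05 in control, 0.70 ± 0.10, adjusted p = 3.55e-06 in C-3BO, 0.50 ± 0.10, adjusted p = 8.79e-04 in saline and 0.79 ± 0.10, adjusted p = 9.53e-07 in CL mice. Col8a1 was higher in control (0.69 ± 0.17, adjusted p = 0.00198), saline (0.56 ± 0.18, adjusted p = 0.0305) and CL mice (0.72 ± 0.18, adjusted p = 0.00275), and gave 0.39 ± 0.19, adjusted p = 0.128 in C-3BO mice. The call in saline mice was lost without chow saline replicate 1, 4 or 5 or HFD saline replicate 1, 3 or 5 (adjusted p from 0.0594 to 0.101) and with the libraries of the comparison alone (adjusted p = 0.0817). Endothelial markers were higher on HFD as well, with 7 of 7 called in control, 7 in C-3BO, 3 in saline and 7 in CL mice, beside 15.4%, 13.5%, 7.45% and 10.9% of all genes. Of the 6 mural markers all were called higher in control and 2 in C-3BO mice, and their calls in saline and CL mice are not given here. The part of these markers in the HFD effect was not tested.

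Col28a1 (NM_001037865, chr6:7947808-8142617, minus strand), which encodes type XXVIII collagen, known from peripheral nerve, had the largest fall of the family. Chow control mice held 9.34, 16.6, 4.59, 7.92 and 4.13 CPM, and chow C-3BO mice 0.904, 1.39, 0.956, 1.33 and 0.43 CPM. On HFD, control mice held 16.3, 19.9, 11.5, 3.33 and 6.68 CPM and C-3BO mice 4.49, 3.27, 3.06, 3.06 and 4.71 CPM. The groups did not overlap on chow and overlapped on HFD through the control mouse at 3.33 CPM. The log2 fold change was -3.05 ± 0.48, adjusted p = 6.24e-06 on chow and -1.64 ± 0.41, adjusted p = 0.00159 on HFD. CL left the ranges overlapping on chow (3.75 to 12.8 CPM in saline and 3.74 to 11.2 CPM in CL mice) and on HFD (7.87 to 22.1 CPM and 10.2 to 20 CPM), with log2 fold changes of -0.24 ± 0.38, adjusted p = 0.733 and 0.31 ± 0.39, adjusted p = 0.614. On HFD against chow Col28a1 was higher in C-3BO mice (1.84 ± 0.52, adjusted p = 0.00799), without overlap, and in CL mice (1.19 ± 0.38, adjusted p = 0.0202), where the call was lost without chow CL replicate 1 or 2 or HFD CL replicate 4 (adjusted p from 0.0537 to 0.0613).

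**Figure D4:**
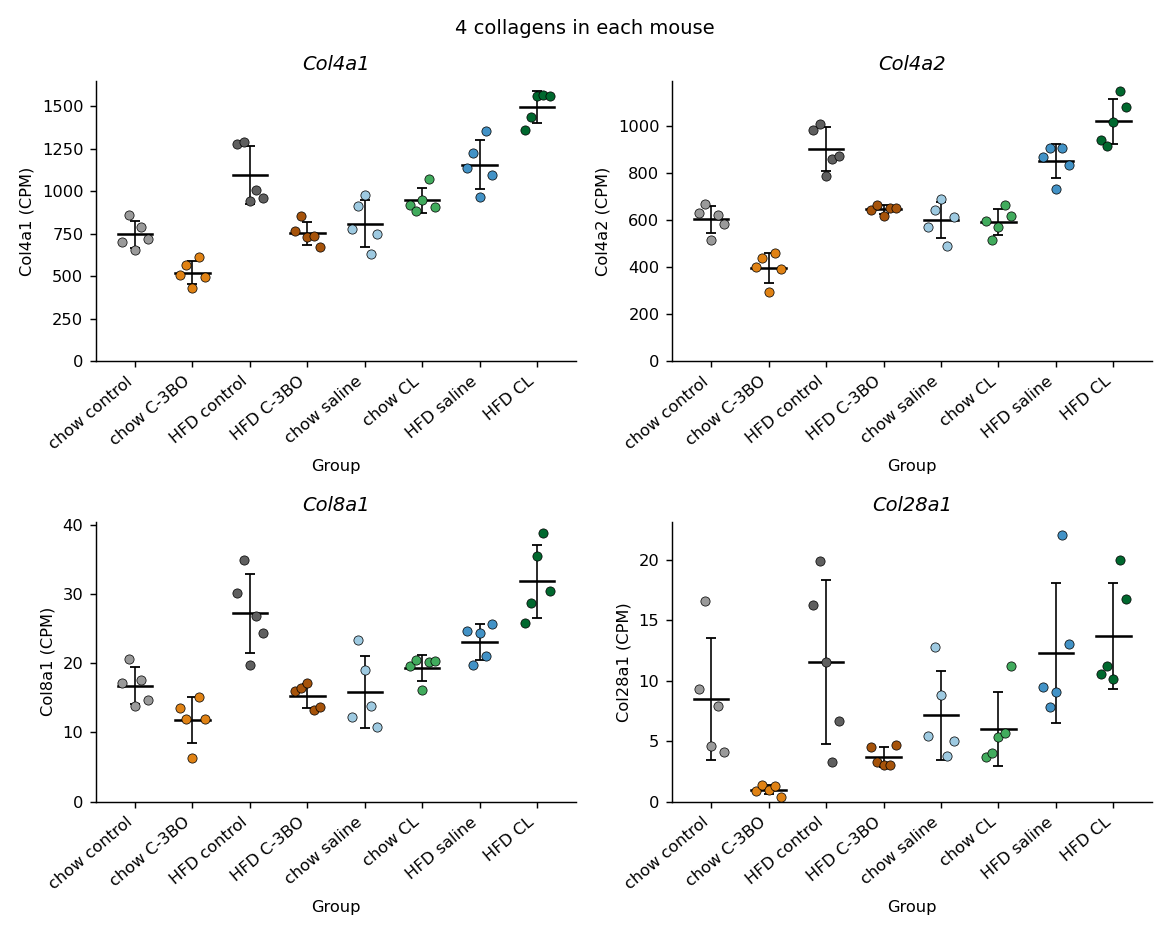
Levels of Col4a1, Col4a2, Col8a1 and Col28a1 in CPM for each mouse (points) in the 8 groups, with the mean (line) and SD (bar); axes start at 0. C-3BO mice lie below their controls for Col4a1 and Col4a2 on both diets, and HFD CL mice hold the highest means of Col4a1, Col4a2 and Col8a1.

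The fibrillar collagens had a lower median in each treatment comparison, but which members passed depended on the treatment and diet. The median log2 fold change of the 8 tested fibrillar genes was -0.57 and -0.43 for C-3BO and -0.35 and -0.85 for CL on chow and HFD. C-3BO lowered 3 on chow (Col5a1, Col5a2 and Col5a3, the type V chains that nucleate fibrils) and 1 on HFD (Col5a3), and CL lowered 5 on HFD (Col1a1, Col1a2, Col5a1, Col5a3 and Col27a1). Of all tested genes 15.9%, 15.5% and 10.8% were lower in these comparisons, in that order. The count for C-3BO on HFD lies near its share. CL on chow gave no fibrillar call by edgeR's quasi-likelihood test, with 1 higher and 3 lower at an unadjusted p under 0.05 and 0 in DESeq2. Col5a3 was called lower in 3 of the 4 comparisons. It fell from 98.3 ± 12 CPM to 65.7 ± 14.6 CPM with C-3BO on chow (SD, n = 5; -0.58 ± 0.15, adjusted p = 0.0028) and from 244 ± 23.2 CPM to 137 ± 22 CPM with CL on HFD (-0.83 ± 0.15, adjusted p = 6.52e-05). Col5a1 fell with CL on HFD from 186 ± 36.1 CPM to 93.4 ± 34.8 CPM (-0.99 ± 0.23, adjusted p = 0.00136). Other calls were less firm. With C-3BO on chow, Col5a1 (-0.60 ± 0.23, adjusted p = 0.0400) was lost without chow control replicate 4 or 5 or chow C-3BO replicate 1, 2, 4 or 5 (adjusted p from 0.0527 to 0.172). Col5a2 (-0.61 ± 0.23, adjusted p = 0.0431) was lost without chow control replicate 2, 3, 4 or 5 or chow C-3BO replicate 1, 2, 4 or 5 (adjusted p from 0.0565 to 0.13). For CL on HFD the call of Col27a1, a fibrillar chain of cartilage (-0.87 ± 0.32, adjusted p = 0.0439), was lost without HFD saline replicate 1, 3 or 4 or HFD CL replicate 2, 3, 4 or 5 (adjusted p from 0.0537 to 0.175).

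The major fibril chains varied widely between mice of a group. Col3a1 (type III collagen) spanned 351 to 835 CPM in chow control, 275 to 493 CPM in chow C-3BO, 236 to 424 CPM in HFD control and 167 to 280.1 CPM in HFD C-3BO mice. In the second cohort it spanned 632 to 1678 CPM in chow saline, 615 to 1675 CPM in chow CL, 1431 to 2308 CPM in HFD saline and 667 to 1529.9 CPM in HFD CL mice. The second cohort had higher means, and the cohorts were not compared by a test. With C-3BO the log2 fold change of Col3a1 was -0.56 ± 0.27, adjusted p = 0.115 on chow and -0.44 ± 0.27, adjusted p = 0.212 on HFD, and with CL -0.24 ± 0.27, adjusted p = 0.611 and -0.70 ± 0.27, adjusted p = 0.0584. The chains of type I collagen were not called in C-3BO mice, where Col1a1 gave -0.43 ± 0.29, adjusted p = 0.275 on chow and -0.24 ± 0.30, adjusted p = 0.565 on HFD and Col1a2 -0.50 ± 0.27, adjusted p = 0.154 and -0.42 ± 0.27, adjusted p = 0.228. CL on HFD lowered both, Col1a1 from 553 ± 189.7 CPM to 293 ± 113 CPM (-0.91 ± 0.29, adjusted p = 0.0218) and Col1a2 from 726 ± 194 CPM to 374 ± 134 CPM (-0.96 ± 0.27, adjusted p = 0.00775). The Col1a1 call was lost without HFD saline replicate 2 or 4 or HFD CL replicate 1 or 4 (adjusted p from 0.056 to 0.0747).

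HFD without treatment gave fibrillar calls of opposite sign in control and saline mice, a difference that was not tested itself. In control mice Col1a1 (-0.92 ± 0.29, adjusted p = 0.0148), Col1a2 (-0.71 ± 0.27, adjusted p = 0.0372) and Col5a3 (-0.38 ± 0.15, adjusted p = 0.041) were lower on HFD than on chow. Col1a1 held 129, 151, 164, 302 and 173 CPM on chow and 118, 93.5, 71.6, 86.6 and 117 CPM on HFD, groups that did not overlap. These calls were weak: library totals alone as the scaling ended all of them (adjusted p = 0.0512, 0.12 and 0.281), as did leaving out chow control replicate 4 for Col1a1 (0.0871), chow control replicate 3 or 4 or HFD control replicate 2, 3 or 4 for Col1a2 (0.0589 to 0.179), and chow control replicate 2, 3 or 5 or HFD control replicate 3 or 5 for Col5a3 (0.0504 to 0.132). In saline mice 5 fibrillar genes were higher on HFD, Col5a3 with 0.77 ± 0.15, adjusted p = 4.86e-04, Col1a2 with 0.80 ± 0.27, adjusted p = 0.035 and Col3a1 with 0.77 ± 0.27, adjusted p = 0.0486, besides Col5a1 and Col5a2, while Col1a1 gave 0.38 ± 0.29, adjusted p = 0.407. Of all tested genes 17.5% were lower on HFD in control mice and 7.45% higher in saline mice. The Col3a1 call in saline mice was lost without chow saline replicate 1, 4 or 5 or HFD saline replicate 1, 2 or 4 (adjusted p from 0.073 to 0.15), in DESeq2 (adjusted p = 0.0544) and with the libraries of the comparison alone (adjusted p = 0.0643). The Col1a2 call was lost without chow saline replicate 1, 4 or 5 or HFD saline replicate 1, 2 or 4 (adjusted p from 0.0529 to 0.109), that of Col5a1 without chow saline replicate 1, 4 or 5 or HFD saline replicate 1, 2 or 4 (adjusted p from 0.0584 to 0.101), and that of Col5a2 without chow saline replicate 1, 4 or 5 or HFD saline replicate 2 or 4 (adjusted p from 0.0913 to 0.137) and with the libraries of the comparison alone (adjusted p = 0.0622). All HFD saline libraries belong to the 12 shallow ones. In HFD saline mice 5 of 6 macrophage markers (Adgre1, Cd68, Csf1r, Mrc1, Lyz2 and C1qa) were higher than in chow saline mice, beside 7.45% of all genes, with sums of 293 to 733 against 135 to 291 CPM. Control mice on chow held skeletal muscle transcripts, all 7 of which were called lower on HFD, beside 17.5% of all genes. The part of either in these fibrillar results was not tested.

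**Figure D5:**
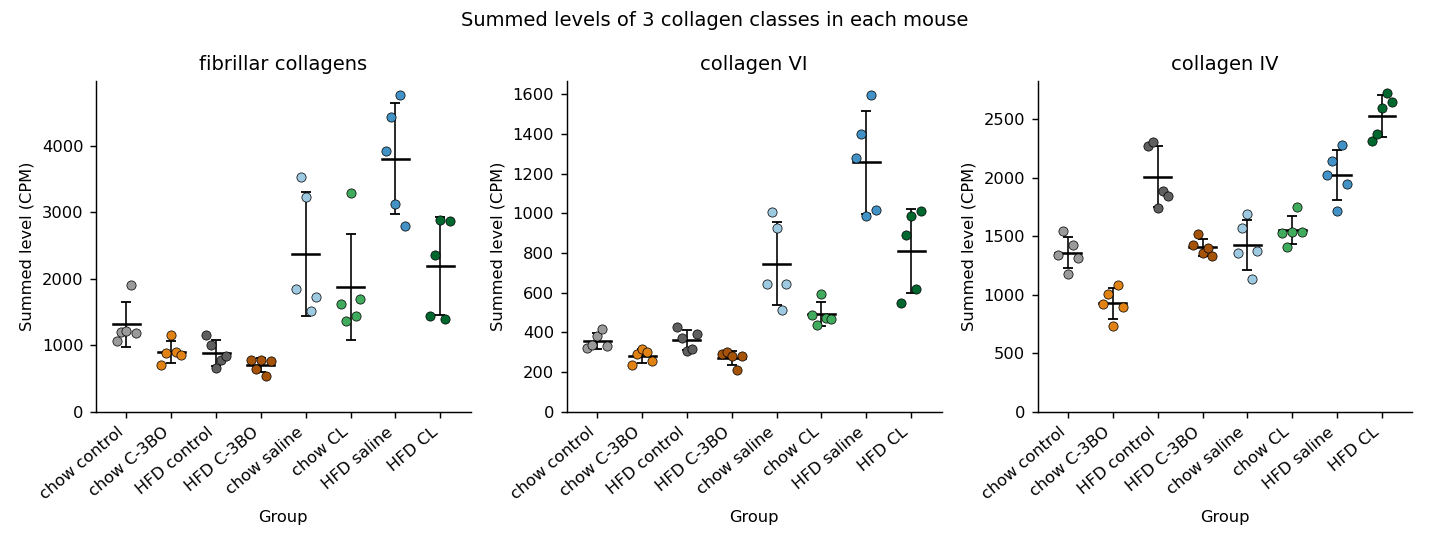
Summed CPM of the 11 fibrillar, 6 collagen VI and 6 collagen IV genes for each mouse (points) in 8 groups, with the mean (line) and SD (bar); axes start at 0 and differ in scale. Fibrillar sums reach 4760.3 CPM in HFD saline mice and collagen IV sums 2728 CPM in HFD CL mice, and chow CL replicate 3 stands above the other chow CL mice in the fibrillar panel.

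Collagen VI chains were lower with CL on both diets. Col6a1, Col6a2 and Col6a3, the chains of its microfibrils, were all lower with CL on chow (-0.50 ± 0.16, adjusted p = 0.0259 for Col6a1, -0.60 ± 0.16, adjusted p = 0.00756 for Col6a2 and -0.69 ± 0.17, adjusted p = 0.00542 for Col6a3) and on HFD (-0.64 ± 0.16, adjusted p = 0.00300, -0.65 ± 0.16, adjusted p = 0.00284 and -0.61 ± 0.18, adjusted p = 0.0102). Col6a2 held 206, 303, 284, 158 and 196 CPM in chow saline and 166, 131, 175, 139 and 146 CPM in chow CL mice. The lowest saline mouse lay inside the CL range, so the groups overlapped. Of 7 skeletal muscle markers 6 were also lower with CL on chow, beside 6.13% of all genes (8.22 to 2073 CPM in sum in saline and 8.63 to 114 CPM in CL mice), and their part was not tested. The Col6a1 call on chow was lost without chow saline replicate 2 or 3 or chow CL replicate 2 or 4 (adjusted p from 0.0603 to 0.106). With C-3BO the fold changes had the same sign, and Col6a2 (-0.41 ± 0.16, adjusted p = 0.0426) and Col6a3 (-0.52 ± 0.18, adjusted p = 0.0200) passed on HFD but not on chow (adjusted p = 0.0525 and 0.124). Without HFD C-3BO replicates 4 and 5 both were lost (-0.33, adjusted p = 0.203, and -0.40, adjusted p = 0.158). The Col6a2 call was lost without HFD control replicate 1, 2 or 5 or HFD C-3BO replicate 1, 3, 4 or 5 (adjusted p from 0.051 to 0.117) and the Col6a3 call without HFD control replicate 1 or HFD C-3BO replicate 4 (adjusted p from 0.0551 to 0.0653). HFD raised all 3 in saline and CL mice, with 0.86 ± 0.16, adjusted p = 3.52e-04 and 0.72 ± 0.16, adjusted p = 9.48e-04 for Col6a1, which had 0.04 ± 0.16, adjusted p = 0.891 in control and 0.04 ± 0.16, adjusted p = 0.89 in C-3BO mice.

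Fibroblast and preadipocyte markers were counted beside these classes. Of 10 markers (Pdgfra, Pdgfrb, Dpt, Pi16, Thy1, Cd34, Gsn, Mfap5, Dcn and Lum), 3 were lower with C-3BO on chow and 3 on HFD, and CL lowered 1 on chow and 5 on HFD and raised 1 there (15.9%, 15.5%, 6.13%, 10.8% and 12.7% of all genes, in that order). The markers summed to 1056 to 1649 CPM in chow control and 1042 to 2222 in chow C-3BO, 1272 to 1714 in HFD control and 846 to 1442 in HFD C-3BO, 1800.3 to 3229.9 in chow saline and 1422 to 1795 in chow CL, and 3045 to 3830.2 in HFD saline and 1359 to 2141 CPM in HFD CL mice. HFD raised 4 of the 10 in saline mice, beside 7.45% of all genes. Cd34 was lower with C-3BO (-1.30 ± 0.22, adjusted p = 1.67e-05 on chow and -1.11 ± 0.21, adjusted p = 9.69e-05 on HFD), and Gsn (-1.26 ± 0.20, adjusted p = 1.42e-05), Dpt (-1.25 ± 0.26, adjusted p = 4.59e-04) and Pdgfra (-0.81 ± 0.22, adjusted p = 0.0065) led the fall with CL on HFD. Dcn and Lum are also in the list of fibril partners, and endothelial cells are known to express Cd34. The part of these markers in the fibrillar and collagen VI results was not tested.

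Col12a1, a fibril-associated collagen that binds type I fibres, was 1 of 3 collagens higher in C-3BO mice on HFD, besides Col10a1 and Col6a4. On HFD it held 95.6, 102, 70.9, 65.4 and 89.2 CPM in control and 230.0, 174, 174, 70.7 and 123 CPM in C-3BO mice, and the lowest C-3BO values came from the shallow replicates 4 and 5. It was higher in C-3BO mice on HFD (0.87 ± 0.24, adjusted p = 0.0041) while chow gave 0.05 ± 0.24, adjusted p = 0.895, and without replicates 4 and 5 the HFD value was 1.19, adjusted p = 2.67e-04. HFD raised it in control (0.86 ± 0.24, adjusted p = 0.00525), C-3BO (1.68 ± 0.25, adjusted p = 4.36e-06) and CL mice (1.83 ± 0.25, adjusted p = 2.10e-06), where chow CL mice held 22.3 to 53.3 CPM and HFD CL mice 77.3 to 139 CPM with no overlap. In saline mice the change was 0.66 ± 0.25, adjusted p = 0.0618. Another fibril-associated member, Col20a1, was lower in CL mice on HFD than on chow (-1.32 ± 0.30, adjusted p = 0.00115), from 5.46 to 11 CPM to 2.04 to 3.63 CPM, and lower with CL than with saline on HFD (-1.11 ± 0.31, adjusted p = 0.00899).

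The multiplexins Col15a1 and Col18a1, proteoglycan collagens of the basement membrane zone, of which Col18a1 carries endostatin at its C-terminus, were lower with C-3BO on both diets. Col15a1 gave -0.59 ± 0.16, adjusted p = 0.00536 on chow and -0.45 ± 0.16, adjusted p = 0.0296 on HFD, and Col18a1 gave -0.60 ± 0.21, adjusted p = 0.0223 and -0.77 ± 0.21, adjusted p = 0.00392. With CL, Col15a1 was lower on chow (-0.52 ± 0.16, adjusted p = 0.0224) and gave -0.07 ± 0.16, adjusted p = 0.806 on HFD, and Col18a1 was lower on HFD (-0.94 ± 0.21, adjusted p = 8.33e-04) and gave -0.51 ± 0.20, adjusted p = 0.0729 on chow. The Col15a1 call for CL on chow was lost without chow saline replicate 2 or 3 or chow CL replicate 2 (adjusted p = 0.108, 0.104 and 0.0565) and with the libraries of the comparison alone (adjusted p = 0.0784), and its C-3BO call on HFD was lost without HFD C-3BO replicates 4 and 5 (-0.43, adjusted p = 0.0975) and without HFD control replicate 1 or 2 or HFD C-3BO replicate 2 or 4 (adjusted p from 0.0626 to 0.105). The Col18a1 call for C-3BO on chow was lost without chow control replicate 3 or chow C-3BO replicate 1 or 4 (adjusted p from 0.0524 to 0.0604). In CL mice HFD raised Col15a1 from 83.1 to 102 CPM to 147 to 229 CPM (1.08 ± 0.16, adjusted p = 6.71e-06), with no overlap.

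The transmembrane collagens Col13a1 and Col23a1, which sit at cell surfaces and adhesion sites, were lower in C-3BO mice on HFD. Col13a1 held 5.33, 5.07, 2.34, 3.92 and 6.32 CPM in HFD control and 2.45, 1.02, 2.08, 1.02 and 0.614 CPM in HFD C-3BO mice (-1.61 ± 0.34, adjusted p = 3.44e-04), and 1 C-3BO mouse lay above the lowest control mouse. Col23a1 held 9.5, 9.33, 11.6, 8.35 and 13.7 CPM and 5.99, 5.76, 5.02, 2.85 and 6.76 CPM in the same groups (-0.98 ± 0.18, adjusted p = 4.33e-05), with no overlap. On chow Col23a1 was also lower with C-3BO (-0.51 ± 0.17, adjusted p = 0.0209), while Col13a1 gave -0.78 ± 0.35, adjusted p = 0.0869. Col23a1 was lower on HFD in C-3BO (-0.58 ± 0.18, adjusted p = 0.0168) and CL mice (-0.62 ± 0.18, adjusted p = 0.011). The call in C-3BO mice was lost without chow C-3BO replicate 1 or HFD C-3BO replicate 4 (adjusted p from 0.0515 to 0.0931), without HFD C-3BO replicates 4 and 5 (adjusted p = 0.0651), with library totals alone (adjusted p = 0.115) and with the libraries of the comparison alone (adjusted p = 0.0783), and that in CL mice without HFD CL replicate 4 (adjusted p = 0.0548) and with library totals alone (adjusted p = 0.0857). The call of Col23a1 for C-3BO on chow was lost without chow control replicate 3 or chow C-3BO replicate 3 or 5 (adjusted p from 0.0752 to 0.0816) and with the libraries of the comparison alone (adjusted p = 0.0704). Col13a1 was higher on HFD in control mice (0.90 ± 0.31, adjusted p = 0.0253), a call lost without chow control replicate 2, 4 or 5 or HFD control replicate 1, 2 or 5 (adjusted p from 0.0502 to 0.0841). In CL mice a pair of further low members were lower on HFD, the fibrillar Col11a2 (-1.57 ± 0.34, adjusted p = 7.55e-04) and Col7a1, the collagen of skin anchoring fibrils (-1.62 ± 0.42, adjusted p = 0.00417).

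Col6a4 had few counts, most of them in the shallow libraries. It passed the filter on low counts only through these libraries, so its calls cannot stand as support for a rise. It had counts in 11 of the 12 shallow libraries, 77 in all, and in 8 of the other 28, which held 14 counts together. In HFD C-3BO mice replicates 1, 2 and 3 had no count and replicates 4 and 5 held 2.44 and 1.02 CPM. The fitted log2 fold change for C-3BO on HFD was 3.63 ± 1.13, adjusted p = 0.0111, it became -1.74, adjusted p = 0.503 without those replicates, and it was 2.07, adjusted p = 0.225 without replicate 4 alone. The summed counts were 17 and 2, a ratio of 15.3 with a counting interval of 3.64 to 137. It was also called higher on HFD in C-3BO, saline and CL mice, whose HFD groups hold the shallow libraries, and in C-3BO mice this value turned to -1.49, adjusted p = 0.618 without replicates 4 and 5, and the call was lost without chow C-3BO replicate 2 or 4 or HFD C-3BO replicate 4 or 5 (adjusted p from 0.0525 to 0.271). The liver markers summed to 80.7 to 453 CPM and the epididymis markers to 0 to 61.9 CPM in HFD C-3BO mice, and their part in the Col6a4 counts was not tested.

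The response of the collagens to each treatment was compared between diets as well. In C-3BO mice the level of Gpr3 also differed between diets, with 266 to 463 CPM on chow and 688 to 918 CPM on HFD. Its part in the differences of the C-3BO effect was not tested. No collagen had a C-3BO effect on HFD that differed from that on chow (1.35% higher and 0.731% lower of all genes), with 5 of 30 at an unadjusted p under 0.05 in edgeR's quasi-likelihood test, and DESeq2 called only Col10a1. Without chow control replicate 5, HFD control replicate 4 or HFD C-3BO replicate 1, edgeR called 1 collagen. For CL the count was also 0 (0.0151% higher and 0% lower of all genes), with 3 of 30 at an unadjusted p under 0.05 in edgeR and none called by DESeq2.

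Genes that make, trim and break down collagen were examined as lists. Of 16 tested genes of collagen synthesis and folding in the endoplasmic reticulum, 9 were lower with C-3BO on chow, 7 on HFD and 5 with CL on each diet, where 15.9%, 15.5%, 6.13% and 10.8% of all genes were lower. None was called higher in these 4 comparisons by edgeR's quasi-likelihood test, with 0 at an unadjusted p under 0.05 and 0 in DESeq2. The prolyl hydroxylase subunit P4hb (-0.44 ± 0.08, adjusted p = 4.24e-05), the prolyl 3-hydroxylase Lepre1 (-0.67 ± 0.13, adjusted p = 1.20e-04) and its partner Crtap (-0.50 ± 0.11, adjusted p = 6.89e-04) led on chow with C-3BO, and the lysyl hydroxylase Plod3 led with CL on HFD (-0.63 ± 0.11, adjusted p = 6.06e-05). On HFD against chow 2, 3, 2 and 2 were higher in control, C-3BO, saline and CL mice and 1 was lower in CL mice, with Plod1 at 0.44 ± 0.08, adjusted p = 4.44e-05 in control mice. Of all genes 15.4%, 13.5%, 7.45% and 10.9% were higher in these groups and 12.7% lower in CL mice, and the counts lie near those shares.

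Among 12 genes of procollagen trimming and cross-linking the members parted. The N-proteinase Adamts2 was lower in all 4 treatment comparisons (log2 fold change -0.75, -1.13, -0.75 and -0.97), and Pcolce, the enhancer of the C-proteinase, was lower in all but CL on chow, with -0.85 ± 0.19, adjusted p = 6.14e-04 for C-3BO on chow. Loxl1, a lysyl oxidase of elastic fibres, was higher with C-3BO on HFD (1.82 ± 0.22, adjusted p = 5.61e-08) and the effect of C-3BO on it on HFD exceeded that on chow (1.24 ± 0.31, adjusted p = 0.0234). On each diet the C-3BO effect also exceeded the CL effect on the same diet, by 1.10 ± 0.32 (adjusted p = 0.0301) on chow and 1.39 ± 0.31 (adjusted p = 0.0131) on HFD. In total 1 and 3 were higher and lower with C-3BO on chow, 2 and 5 on HFD, 1 and 1 with CL on chow, and 2 were lower with CL on HFD. The shares of all genes higher and lower were 15.8% and 15.9%, 19.3% and 15.5%, and 9.16% and 6.13% in the first 3 comparisons, and 10.8% were lower with CL on HFD. Several of these counts lie near those shares. HFD raised 6 in saline, 5 in CL and 2 in C-3BO mice (7.45%, 10.9% and 13.5% of all genes), and lowered Adamts3 in control mice (-0.95 ± 0.35, adjusted p = 0.0313).

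Of 13 genes of collagen breakdown, which include metalloproteinases and their TIMP inhibitors, 2 were lower with C-3BO on chow, which is near the 15.9% of all genes, 6 on HFD (15.5% of all genes), and 2 and 3 with CL on chow and HFD (6.13% and 10.8%). None was called higher by edgeR's quasi-likelihood test, with 1 (CL on HFD) at an unadjusted p under 0.05 and 0 in DESeq2. The inhibitor Timp3 was lower in all 4 (-0.34, -0.62, -0.64 and -0.61 on the log2 scale), and the macrophage elastase Mmp12 was lower with C-3BO (-3.06 ± 0.98, adjusted p = 0.0153 on chow). On HFD against chow Timp3 was higher in control mice (0.79 ± 0.13, adjusted p = 9.46e-06) as was Timp4 (1.13 ± 0.19, adjusted p = 2.01e-05), and 3, 2, 5 and 5 of the list were higher in control, C-3BO, saline and CL mice. The shares of all genes higher on HFD there were 15.4%, 13.5%, 7.45% and 10.9%.

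Partners of collagen in the basement membrane were also counted. Of 14 tested laminin, nidogen, perlecan and agrin genes, 4 were lower on chow and 9 on HFD with 1 higher (Lama3, named after its value was seen), and CL lowered 3 on chow and 2 on HFD, where 15.9%, 15.5%, 6.13% and 10.8% of all genes were lower in these 4 comparisons. The laminin chain Lamb2 was lower in all 4 (-0.89 ± 0.14, adjusted p = 4.67e-06 for C-3BO on chow), and Lamc1 (-0.69 ± 0.11, adjusted p = 3.54e-06) and Lamc3 (-0.82 ± 0.14, adjusted p = 1.91e-05) followed on HFD with C-3BO. HFD raised 8 of the 14 in control and 4 in C-3BO mice, led by Lamb3 (1.56 ± 0.29, adjusted p = 5.17e-05 in control mice), 2 in saline mice and 3 in CL mice. The shares of all genes higher on HFD in these groups were 15.4%, 13.5%, 7.45% and 10.9%, in the same order. Of 13 small proteoglycans and fibril partners, 5 and 5 were lower with C-3BO on chow and HFD and 2 with CL on each diet (against the same shares of all genes), with Prelp lower throughout (-0.99, -1.17, -0.81 and -1.28) and higher on HFD than on chow in control mice (1.16 ± 0.16, adjusted p = 1.07e-06).

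Among 7 tested collagen receptors, C-3BO lowered the integrin chains Itga1 (-0.62 ± 0.14, adjusted p = 8.76e-04) and Itgb1 (-0.31 ± 0.08, adjusted p = 0.00161) on HFD. No receptor was called with C-3BO on chow or with CL on either diet by edgeR's quasi-likelihood test, with 0, 1 and 1 at an unadjusted p under 0.05, and DESeq2 called 0, 1 and 0. HFD raised the discoidin receptor Ddr1 in control mice (1.03 ± 0.25, adjusted p = 0.00169) and lowered Itga1 there (-0.81 ± 0.14, adjusted p = 2.22e-05). Among 7 TGF-beta ligands, receptors and responders, which act upstream and downstream of collagen synthesis, 3 and 4 were lower with C-3BO on chow and HFD and 3 with CL on HFD, beside 15.9%, 15.5% and 10.8% of all genes. The receptor Tgfbr2 was lower with C-3BO on HFD (-0.97 ± 0.12, adjusted p = 9.07e-08), and the ligand Tgfb1 was lower with C-3BO on both diets (-0.35 ± 0.12, adjusted p = 0.0215 on chow and -0.55 ± 0.12, adjusted p = 3.40e-04 on HFD) and higher on HFD in control mice (0.39 ± 0.12, adjusted p = 0.00864).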

How the data were processed

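BAT of 40 mice was measured by poly(A) RNA sequencing. Per the labels and the methods, the authors aligned reads with STAR to mm9, made tag directories with HOMER and deposited raw counts of exon reads for each RefSeq gene (iRNA-seq). Tool versions and the strand setting are not given in the sources used here. Totals were 849126 to 15260516 counts per library.

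Groups were taken from the sample titles. All 40 libraries were fitted together, with 1 mean per group, in edgeR 4.0.16 (R 4.3.3) after its expression filter (minimum count 10), with TMM factors (0.798 to 1.18), the quasi-likelihood test and Benjamini-Hochberg adjustment over 13277 genes. CPM are on TMM-scaled totals and RPKM divides these by exon length. The ± after a level is the SD of 5 mice and after a log2 fold change an approximate SE. The latter is the absolute log2 fold change divided by the square root of the quasi-likelihood F, not a fitted SE. Alternatives were DESeq2 1.42.0, other scalings, filters and call rules, a replicate block, and libraries left out. The code was tested on simulated data.

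Genes named were the 8 collagens of highest mean RPKM, up to 4 called collagens per direction and comparison by smallest adjusted p, those called in a difference of effects, the collagen IV genes, and up to 3 called genes per comparison of other lists. Other collagens were named, after their values were seen, to account for all members. Members and lists were chosen with earlier results of these data known. Sequences come from the mm9 genome, exons from GENCODE vM1.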

Additional observations from a re-analysis of the deposited data

Results flagged for a closer look

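Of 200 sets made of a named collagen in a group of 5 mice, 16 had 1 mouse far from the other 4. The rule passes about 1 in 20 sets of independent, normal values. The sets here share mice, and 4 values at 0 beside 1 above 0 pass by construction, so that rate does not apply. Chow CL replicate 3 was set apart most often. It held the highest level of its group for Col3a1 (1675 CPM), Col1a2 (607 CPM), Col1a1 (600.2 CPM), Col6a3 (237 CPM) and Col5a1 (123 CPM), and the lowest for Col8a1 (16.1 CPM). Chow CL replicate 5 held the highest level of Col28a1 (11.2 CPM) and of Col20a1 (10.96 CPM) in that group. In other chow groups the mouse set apart was control replicate 4 for Col1a1 (302 CPM), C-3BO replicate 3 for Col1a2 (229.9 CPM), C-3BO replicate 4 for Col4a5 (7.64 CPM) and saline replicate 2 for Col23a1 (12.6 CPM). HFD saline replicate 4 was set apart for Col18a1 (124 CPM). For Col6a4, 1 mouse with a few counts stood above 4 at 0 in chow control mice (replicate 5, 0.399 CPM), chow C-3BO mice (replicate 3, 0.119 CPM) and HFD control mice (replicate 2, 0.178 CPM).

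The effects of C-3BO and CL, each against its own controls, differed by test for 4 collagens on chow. The difference on the log2 scale was -2.81 for Col28a1, -0.81 for Col8a1, -0.74 for Col4a1 and -0.58 for Col4a2. On HFD it was -1.26 for Col8a1, -0.92 for Col4a1 and -0.75 for Col4a2.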

How the results depend on the processing

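Counts of collagens called are given by setting, without the share of all genes called under the same setting. With library totals alone as the scaling, C-3BO on chow gave 19 (1 higher, 18 lower), CL on chow 8 (1 higher, 7 lower) and HFD in control mice 5. This scaling shifted the genes as a whole too. For C-3BO on chow their median went from -0.03 to -0.23, and that of the collagens from -0.50 to -0.70. For CL on chow these medians went from -0.01 to -0.15 and from -0.24 to -0.40. The counts of 19 and 8 therefore cannot be read apart from that shift. An absolute log2 fold change above 1 in addition gave 2 and 4 for C-3BO on chow and HFD, 1 and 2 for CL on chow and HFD, 0, 4, 1 and 7 for HFD in control, C-3BO, saline and CL mice, and 1 and 1 for the difference between C-3BO and CL on chow and HFD. Genes with at least 10 counts in every library gave 3 for HFD in C-3BO and 8 in CL mice. The libraries of the comparison alone gave 3 for CL on chow and 2 for the difference between C-3BO and CL on chow. Without HFD C-3BO replicates 4 and 5, HFD in C-3BO mice gave 5. DESeq2 gave 1 for the difference of the C-3BO effect between diets. Leaving out 1 replicate at a time gave 8 to 12 and 10 to 15 for C-3BO on chow and HFD, 3 to 8 and 10 to 13 for CL, 5 to 9, 5 to 8, 8 to 15 and 12 to 15 for HFD in control, C-3BO, saline and CL mice, 0 to 1 for the C-3BO effect by diet, and 3 to 4 for each difference between C-3BO and CL. The causes were not tested.

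Of 93 gene results under 1645 alternatives, 1482 kept their direction and stayed past the threshold, 161 kept their direction and lost it, and 2 turned. The latter were Col6a4 for C-3BO on HFD (-1.74) and for HFD in C-3BO mice (-1.49) without HFD C-3BO replicates 4 and 5. Not every pair of same-numbered mice had a correlation of deviations above 0.1 in any of the 8 comparisons (mean over pairs from -0.136 to 0.172, the highest for C-3BO on chow, where 3 of 5 mice correlated best with their own number), so the numbers were not taken as pairs. A replicate block gave 11, 15, 5 and 13 calls for C-3BO on chow and HFD and CL on chow and HFD, and 8, 8, 14 and 14 for HFD in control, C-3BO, saline and CL mice. Among the gene calls the block ended that of Col27a1 for CL on HFD (adjusted p = 0.0548). The depth limits Col10a1, Col6a4 and the 14 collagens that could not be tested.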

Other observations

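The ratio of chains that assemble together was examined after the levels had been seen. Over 16 comparisons of per-length ratios by an exact permutation test (two-sided, 5 against 5 mice, smallest possible p = 0.00794), none passed Benjamini-Hochberg adjustment. Among 16 tests, a ratio at this smallest p can pass only if several others reach it too. The lack of a call therefore does not show that the ratios were equal. Col4a1 to Col4a2 averaged 1.56 in chow CL and 1.3 in chow saline mice (exact p = 0.00794, adjusted p = 0.0635), and Col1a1 to Col1a2 averaged 0.82 in HFD saline and 1.1 in chow saline mice (exact p = 0.00794, adjusted p = 0.0635).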
